A study of Mus musculus with 15 samples.

Results

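Ddx24KD is the knockdown of Ddx24 by RNA interference in E14 mouse embryonic stem cells, an established line, set against EGFPKD, the control of the study. By their labels, 3 Ddx24KD and 3 EGFPKD libraries of poly(A) RNA belong to it, 6 of the 15 libraries in the series. Ddx24KD cells received small interfering RNA against Ddx24, and EGFPKD cells received small interfering RNA against EGFP, the enhanced green fluorescent protein. Both were grown on 0.2% gelatin, kept for 16 h with 400 ng of the RNA and 4 µL of Lipofectamine, then given fresh medium and collected at 48 h. Each group is 3 biological replicates of a transiently treated, unsorted culture, so a level is an average over all cells of the dish. How many different RNAs made up each 400 ng is not given in the sources used here. Another 9 libraries (3 each of Ddx10KD, Ddx27KD and Ddx54KD, treated alike against 3 related helicases) entered 1 comparison. The series title names proteins that interact with R-loops, which are RNA and DNA hybrids, and the processing of ribosomal RNA.

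DDX24 is a DEAD-box protein, one of a family of ATP-driven enzymes that open or remodel RNA duplexes, and it concentrates in the nucleolus, where ribosomes are assembled. Its relative in budding yeast, Mak5, acts in the assembly of the large ribosomal subunit. Human DDX24 has been reported to bind the acetyltransferase p300 and restrain p53, and to dampen signalling from cytoplasmic RNA sensors. In many mammalian cells, disturbed ribosome assembly frees ribosomal proteins that bind MDM2, the ligase that keeps p53 low.

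The 6 libraries held 27004401 to 27650746 expected counts, which are reads per gene as RSEM estimated them, and 16861 to 17032 genes with at least 1. Levels below are in TPM, a per-length scale with the same total in every library, and log2 changes come from edgeR on the counts, Ddx24KD over EGFPKD. A bare value in brackets after a gene, or a gene said to be at a value with no unit, is its log2 change. A gene is called, and is said to rise or fall, at an adjusted p under 0.05 over the 14335 genes tested. Markers of embryonic stem cells were high in all 6 libraries, with Pou5f1 at 1527 to 1552 TPM in Ddx24KD and 1619 to 1678 TPM in EGFPKD. The summed level of 6 such markers was 6591 to 6675 TPM in Ddx24KD and 6564 to 6770 TPM in EGFPKD. The 5 primitive endoderm markers summed to 3.27 to 5.18 TPM in Ddx24KD and 3.11 to 4.63 TPM in EGFPKD, and the 4 trophoblast markers to 2.86 to 4.07 TPM in Ddx24KD and 1.90 to 3.76 TPM in EGFPKD. Of 20 fibroblast markers, Dcn and Postn were at 0 in all 6 libraries, and the sum, mostly Fn1 and Vim, was 526.9 to 612 TPM in Ddx24KD and 641 to 679 TPM in EGFPKD. In bulk RNA, fewer cells of a kind and less RNA per cell cannot be told apart.

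Replicate 2 of Ddx24KD stood apart from the other libraries. On the first principal component of the 6, with 58.8% of the variance, Ddx24KD replicates 1 to 3 lay at -28.2, -15.8 and -36.0, and the EGFPKD libraries between 24.7 and 29.2. On the second, with 14.6%, Ddx24KD replicate 2 was at -26.0 and EGFPKD replicate 2 at -10.3, while the other 4 lay between 7.83 and 10.8. Among the 535 genes that rose at least 2-fold, this library had the smallest increase of the 3 in 419, and the median increase on log2(TPM + 1) was 0.81, 0.55 and 0.92 in replicates 1 to 3. Among the 111 that fell at least 2-fold it was the least changed in 45, with medians of -0.64, -0.65 and -0.69. Each count below was repeated without each library, and is given beside the main one where it moved by over 1.5 times.

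Ddx24 itself was at 41.2, 41.7 and 31.6 TPM in Ddx24KD, against 129.8, 120.0 and 121 TPM in EGFPKD. Every knockdown library lay far below every control library, and the log2 change was -1.70 ± 0.08 (SE, edgeR adjusted p = 7.09e-09). The gene lies at chr12:103407976-103425847 on the reverse strand (RefSeq, GRCm38.p6). Its relatives Ddx10, Ddx27 and Ddx54, the targets of the other knockdowns, were not called. Ddx10 was at -0.17 ± 0.10 (edgeR adjusted p = 0.208), Ddx54 at -0.11 ± 0.08 (edgeR adjusted p = 0.324) and Ddx27 at -0.11 ± 0.05 (edgeR adjusted p = 0.17), and with the replicate number as a block Ddx27 had an adjusted p of 0.0252. Of the 5 annotated genes on each side of Ddx24, 3 had enough counts to test. Otub2, a deubiquitinase gene just beyond its 3′ end, was at 2.71, 3.23 and 2.51 TPM in Ddx24KD, against 3.89, 3.97 and 3.68 TPM in EGFPKD. It fell by 0.45 on the log2 scale (edgeR adjusted p = 0.016), a call lost without Ddx24KD replicate 3 (adjusted p = 0.0800) and in 2 other fits without a single library. The phosphatase subunit gene Ppp4r4 (0.46 ± 0.19, edgeR adjusted p = 0.0865) and the channel subunit gene Unc79 (0.39 ± 0.56, edgeR adjusted p = 0.652) were not called.

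Depletion was followed by many changes, most of them small. Of 14335 genes 4026 were called (28.1%), 2154 higher (15%) and 1872 lower (13.1%). Large changes were mostly increases. Between 2-fold and 4-fold, 410 genes rose and 109 fell, and beyond 4-fold 125 rose and 2 fell. The 2 were Ubap1l (-2.94) and the adipokine gene Adipoq (-2.79), both under 5 TPM and named after their values were seen. Below a log2 change of 0.25 the balance was the other way, with 365 higher and 577 lower. The direction also depended on how abundant a transcript was. Of the 2152 genes with a mean under 1 TPM, 14.4% rose and 3.25% fell, whereas of the 1744 genes above 100 TPM 10% rose and 27.8% fell. The median log2 change over all tested genes was 0.0031, and under the other scalings it lay between -0.000546 and 0.0122. With the replicate block 5907 genes were called, 3051 higher and 2856 lower, and 646 genes (4.51%) were called with at least a 2-fold change.

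**Figure D1:**
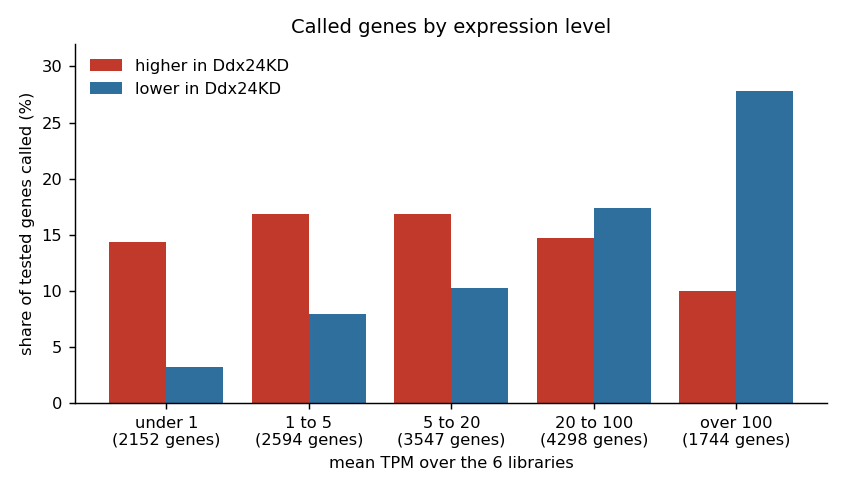
Share of tested genes that rose (red) or fell (blue) in Ddx24KD relative to EGFPKD, by mean TPM over the 6 libraries, with the number of genes under each pair of bars. Increases exceed decreases up to 20 TPM, and above 100 TPM 10% rose and 27.8% fell.

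Among called genes that averaged at least 5 TPM in a group, the largest increase was that of Ano3, an anoctamin of the family of lipid scramblases and chloride channels. Ano3 was at 7.94, 5.59 and 9.23 TPM in Ddx24KD, against 0.47, 0.83 and 0.69 TPM in EGFPKD, a log2 change of 3.50 ± 0.22 (SE, edgeR adjusted p = 6.09e-08). Next came Cpz, a carboxypeptidase that binds Wnt proteins, at 9.52, 5.38 and 12.8 TPM in Ddx24KD, against 0.49, 0.83 and 1.32 TPM in EGFPKD. Serpine2, a secreted inhibitor of thrombin and plasminogen activators at chr1:79794317-79858665, was at 65.5, 41.9 and 67.6 TPM in Ddx24KD, against 6.66, 7.46 and 7.01 TPM in EGFPKD. None of these 3 overlapped between groups, and replicate 2 was the lowest knockdown library in each. TPM values of the 2 groups did not overlap in 5772 of the tested genes (40.3%), so absence of overlap is common in this comparison. The Wnt ligand Wnt5a (3.01), the membrane protein Ms4a10 (2.97), the phosphatase Ptprv (2.81), the signalling protein Rtkn (2.73), the neurogenic factor Neurod1 (2.59), the surface protein Cd109 (2.56) and the p53 relative Trp73 (2.55) completed the 10 largest log2 increases under the naming rule. Their edgeR adjusted p ran from 1.21e-07 (Rtkn) to 1.17e-05 (Cd109), and all kept their calls in every fit without a single library.

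Among called genes that averaged at least 5 TPM in a group, the largest decrease was that of Nupr1, a small stress-induced chromatin protein. Nupr1 was at 3.50, 5.75 and 4.97 TPM in Ddx24KD, against 11.9, 24.7 and 15.9 TPM in EGFPKD, a log2 change of -1.89 ± 0.34 (SE, edgeR adjusted p = 0.000661). Ggt1, which cleaves extracellular glutathione, was at 3.11, 2.68 and 3.45 TPM in Ddx24KD, against 8.72, 9.23 and 8.82 TPM in EGFPKD. Slc7a1, the main importer of arginine and lysine at chr5:148327410-148399904, was at 15.2, 15.8 and 13.9 TPM in Ddx24KD, against 32.8, 39.2 and 32.2 TPM in EGFPKD. In these 3 genes each knockdown library was below each control, with the widest spread among the EGFPKD values of Nupr1. Chac1, which degrades glutathione inside the cell (-1.45), the activin subunit Inhbb (-1.45), the aspartic protease Napsa (-1.36), the homeodomain protein Hopx (-1.29), the ligand Fgf17 (-1.29) and the protease Prss50 (-1.19) also fell. The germ cell gene Stra8 was at -1.21 (edgeR adjusted p = 0.0214), but that call was lost in 3 fits without a single library, with an adjusted p of 0.159 without EGFPKD replicate 2.

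Abundant transcripts changed by less. Of those that moved at least 1.5-fold, the highest levels among the increases belonged to Mdm2, Ccng1, Slc38a2, Psrc1, Cd81, Lefty1, Trp53inp1, Txnip, Ctc1 and Egr1, of which Egr1 lost its call without Ddx24KD replicate 3 (adjusted p = 0.0855) or EGFPKD replicate 1 (adjusted p = 0.0519). The tetraspanin Cd81 was at 210.3, 199 and 221 TPM in Ddx24KD, against 135, 142 and 131 TPM in EGFPKD (log2 0.62). Ctc1, of the complex that caps telomere ends, was at 159, 108 and 188 TPM in Ddx24KD, against 73.5, 74.0 and 79.7 TPM in EGFPKD (log2 0.99). Both were higher in each knockdown library than in any control. Txnip, which restrains thioredoxin, was at 195, 89.8 and 192 TPM in Ddx24KD, against 78.0, 64.6 and 73.5 TPM in EGFPKD, with replicate 2 close to the controls. The highest levels among the decreases belonged to Mt2, Spp1, Tubb2b, Ccnd3, Mt1, Hsd17b14, Tuba4a, Psat1, Nars and Rpl22l1. The tubulins Tubb2b (-0.74) and Tuba4a (-0.86), the cyclin Ccnd3 (-0.65), the secreted glycoprotein Spp1 (-0.59) and the dehydrogenase Hsd17b14 (-0.59) fell. The metallothionein Mt1 was at 185, 293 and 147 TPM in Ddx24KD, against 351, 396 and 300.0 TPM in EGFPKD, again with replicate 2 nearest the controls. Its neighbour Mt2 was called at -0.77 (edgeR adjusted p = 0.0121), but not without Ddx24KD replicate 3 (adjusted p = 0.0632) or in 1 other fit without a single library.

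**Figure D2:**
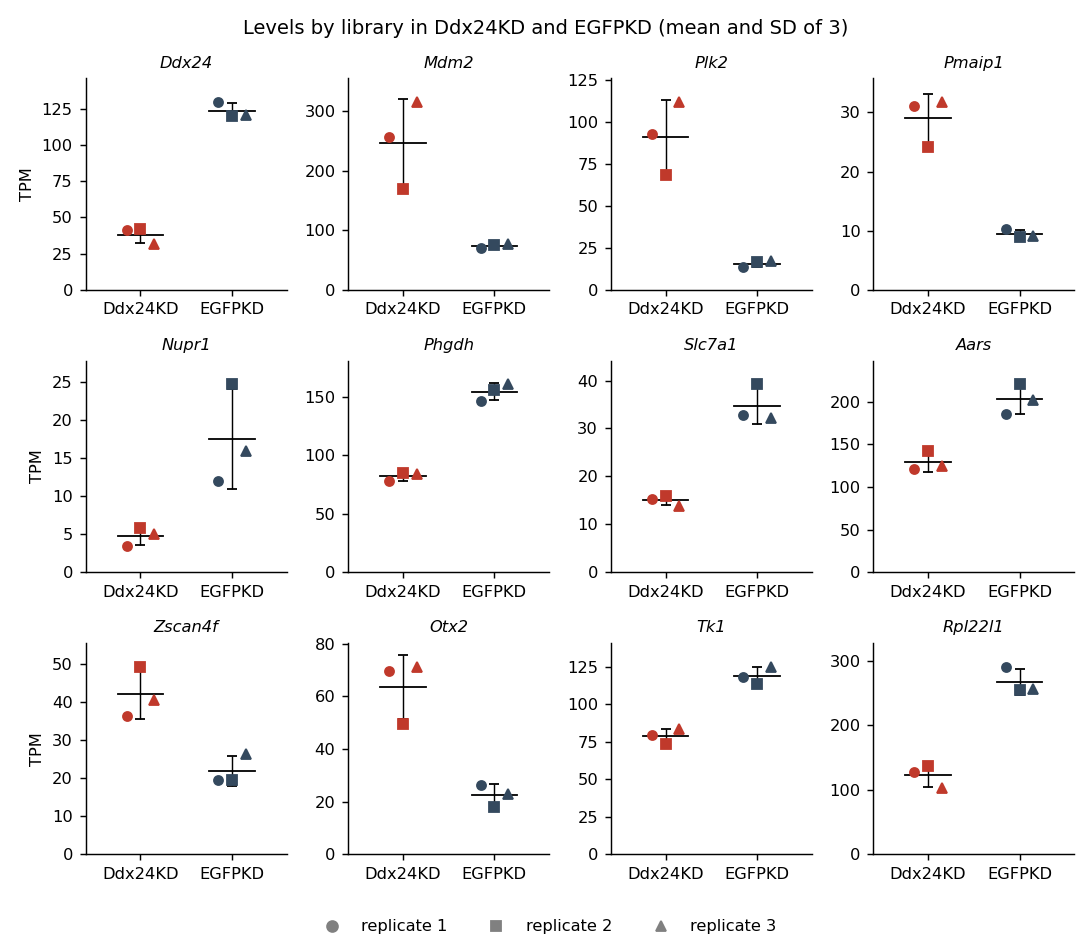
TPM of 12 genes in each Ddx24KD (red, left) and EGFPKD (dark, right) library. Symbols mark the replicate number, and the bar and whiskers are the mean and SD of 3. In all 12 the groups are separate. Replicate 2 (square) is the lowest Ddx24KD library for Mdm2, Plk2, Pmaip1, Otx2 and Tk1. It is the highest for Ddx24, Nupr1, Phgdh, Slc7a1, Aars, Zscan4f and Rpl22l1.

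Most tested targets of p53, the transcription factor that halts or kills damaged cells, rose on both of its arms. Of the targets of arrest and repair, 22 of 29 rose and none fell, with a median log2 change of 0.98, beside 15% higher and a median of 0.00 over all genes. Of the targets of cell death, 15 of 17 rose and none fell, with a median of 1.06. Ei24 stands on both lists, and Ano3 was put on the first because earlier results of these data showed it rising. Trp53, the message of p53, was at 925, 807 and 915 TPM in Ddx24KD, against 804, 772 and 828 TPM in EGFPKD and was not called (0.12 ± 0.05, edgeR adjusted p = 0.0852), though it was with the replicate block (adjusted p = 0.0220). The lowest knockdown value of Trp53, in replicate 2, lay within the controls.

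On the arrest arm, the polo-like kinase Plk2 was at 92.9, 68.1 and 112 TPM in Ddx24KD, against 13.3, 16.7 and 16.9 TPM in EGFPKD, a log2 change of 2.52 ± 0.15 (SE, edgeR adjusted p = 4.27e-08). Mdm2, which marks p53 for degradation and is at chr10:117688875-117710758, was at 257, 169.8 and 316 TPM in Ddx24KD, against 69.8, 74.7 and 76.5 TPM in EGFPKD, a change of 1.73 ± 0.16 (SE, edgeR adjusted p = 1.32e-06). Cdkn1a, the p21 inhibitor of cyclin-dependent kinases, was at 92.1, 48.04 and 94.3 TPM in Ddx24KD, against 36.2, 32.04 and 32.7 TPM in EGFPKD, a change of 1.20 ± 0.16 (SE, edgeR adjusted p = 5.68e-05). Replicate 2 held the lowest knockdown value of all 3 genes, and for Cdkn1a it was 48.0 TPM against a highest control of 36.2 TPM. Btg2, an antiproliferative factor that promotes removal of poly(A) tails, was at 60.2, 42.5 and 68.6 TPM in Ddx24KD, against 14.04, 14.6 and 15.8 TPM in EGFPKD. Phlda3, which competes with the kinase AKT for membrane lipids, was at 88.9, 78.4 and 100.5 TPM in Ddx24KD, against 24.9, 33.1 and 30.5 TPM in EGFPKD. Trp53inp1, a stress protein that binds p53, was at 194, 137 and 234 TPM in Ddx24KD, against 51.0, 53.6 and 55.3 TPM in EGFPKD. All 3 were higher in every knockdown library than in any control. Ccng1 (cyclin G, 1.25) and the spindle protein Psrc1 (0.96) rose too, as did Sesn2 (0.42), which restrains mTORC signalling and is also an ATF4 target.

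On the death arm, Pmaip1, which encodes the BH3-only protein NOXA, was at 31.1, 24.2 and 31.8 TPM in Ddx24KD, against 10.3, 8.88 and 9.18 TPM in EGFPKD, a log2 change of 1.61 ± 0.10 (SE, edgeR adjusted p = 6.9e-08). Bbc3, which encodes PUMA, was at 45.7, 41.1 and 47.9 TPM in Ddx24KD, against 19.8, 22.8 and 21.5 TPM in EGFPKD, a change of 1.06 ± 0.09 (SE, edgeR adjusted p = 5.19e-07). Apaf1, the scaffold of the apoptosome, was at 28.8, 22.9 and 32.6 TPM in Ddx24KD, against 10.8, 11.2 and 11.6 TPM in EGFPKD, a change of 1.32 ± 0.10 (SE, edgeR adjusted p = 2.65e-07). In these genes replicate 2 was again the lowest knockdown library, yet stood above all controls. The membrane protein Perp (2.09) and Zfp365 (2.28), a zinc finger protein of genome maintenance, rose further. All the p53 targets named here kept their calls in every fit without a single library. Per library, the median of the arrest list on log2(TPM + 1), relative to the EGFPKD mean, was 0.98, 0.60 and 1.12 in Ddx24KD, against -0.08, 0.03 and 0.05 in EGFPKD. Without Ddx24KD replicate 2, both lists kept the same counts.

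One promoter window is shown because it holds both cores of the element that p53 is known to bind. The search took the bases CATG, any 6 bases and CATG again, on both strands, in the 250 bases before each RefSeq start (GRCm38.p6), and they occur before 0.57% of 27025 genes and 0.307% of the 10734 tested genes with such a window. Of 34 p53 targets on the lists with a window, Cdkn1a alone held a match, 48 bases before its start, with the matched bases in capitals.
Cdkn1a, chr17:29090901-29090974, forward strand: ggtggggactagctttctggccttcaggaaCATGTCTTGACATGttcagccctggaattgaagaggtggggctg
The start used for Cdkn1a is the outermost one of the gene, whose annotated extent is chr17:29090979-29100722. The search covers these letters in this window and no other part of a gene.

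Genes of ribosome assembly moved little, and mostly down. Among factors of the large subunit, the part of the ribosome that the yeast relative of DDX24 helps to build, 19 of 61 fell and 1 rose, with a median of -0.10; Ddx24 is itself among those that fell. The share lower was 31.1%, beside 13.1% over all genes, 17.4% of genes at 20 to 100 TPM and 27.8% of those above 100 TPM. The count was 29 lower and 5 higher with the replicate block, and 11 lower without Ddx24KD replicate 3. The number higher was 2 without Ddx24KD replicate 2, and 0 without Ddx24KD replicate 1 or 3 or EGFPKD replicate 1 or 2. Rrp1, a factor of large-subunit precursors, was at 171, 169 and 174 TPM in Ddx24KD, against 208, 212 and 205 TPM in EGFPKD, a log2 change of -0.29 ± 0.04 (SE, edgeR adjusted p = 5.36e-05). Senp3, a nucleolar SUMO protease, was at 319, 287 and 315 TPM in Ddx24KD, against 374, 375 and 414 TPM in EGFPKD. Zfp622, a late factor that leaves the subunit in the cytoplasm, was at 53.1, 53.9 and 50.9 TPM in Ddx24KD, against 61.7, 66.6 and 67.9 TPM in EGFPKD. All 3 were lower in each knockdown library than in any control. Las1l, which acts in cleavage of the spacer between the 5.8S and 28S sequences, was at -0.20.

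Of the small-subunit factors, 10 of 48 fell and 3 rose (median -0.08), or 20 and 3 with the block. The shares were 20.8% lower and 6.25% higher. Of all tested genes at 20 to 100 TPM 17.4% fell and 14.7% rose, and above 100 TPM 27.8% fell and 10% rose. The count lower was 6 without EGFPKD replicate 1, 5 without Ddx24KD replicate 1 and 4 without Ddx24KD replicate 3, and 1 was higher without EGFPKD replicate 3 or Ddx24KD replicate 1 or 3. Pno1, which binds the maturing end of 18S RNA, was at 193, 169 and 196 TPM in Ddx24KD, against 238, 220.1 and 238 TPM in EGFPKD, and Noc4l at -0.33 and the GTPase Bms1 at -0.19 fell as well. Utp20, a large scaffold of the small-subunit processome, went the other way, at 123, 108 and 123 TPM in Ddx24KD, against 91.6, 86.2 and 88.8 TPM in EGFPKD, a change of 0.40 ± 0.05 (SE, edgeR adjusted p = 1.24e-05). The Utp20 groups did not overlap. Of the core and assembly proteins of small nucleolar ribonucleoproteins, 7 of 19 fell (36.8%) and none rose. Nop10, of the pseudouridine-forming particle, was at 386, 391 and 370.2 TPM in Ddx24KD, against 527, 495 and 500.2 TPM in EGFPKD, and the ATPase Ruvbl1 was at -0.38.

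The RNA polymerase I machinery, which transcribes ribosomal RNA, had 5 of 22 lower and 2 higher, with 1 lower without EGFPKD replicate 1 or 2 or Ddx24KD replicate 3, and 2 without EGFPKD replicate 3 or Ddx24KD replicate 1. Rrn3, which recruits the polymerase, was at 0.25 (edgeR adjusted p = 0.0011), and Polr2f, a subunit shared by the nuclear polymerases, at -0.32 (edgeR adjusted p = 0.00132). Of the polymerase I list 22.7% fell and 9.09% rose, beside 13.1% and 15% of all genes. Host transcripts of small nucleolar RNAs gave no calls among 14 tested. The block gave 2 higher and 1 lower, and 1 was called without Ddx24KD replicate 2 (higher) and without Ddx24KD replicate 3 (lower).

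Messages of the cytosolic ribosomal proteins were slightly higher as a group, with a median of 0.12. Of these, 15 of 83 rose (18.1%, beside 15% of all genes) and 2 fell, and with the replicate block 47 rose and 2 fell. Without EGFPKD replicate 1 the count higher was 6, without EGFPKD replicate 3 it was 7, without Ddx24KD replicate 2 it was 9 and without Ddx24KD replicate 3 it was 8. Rps27l, a paralogue of Rps27 that is also a p53 target, was at 498, 471 and 508 TPM in Ddx24KD, against 371, 381 and 355 TPM in EGFPKD, a change of 0.41 ± 0.06 (SE, edgeR adjusted p = 9e-05). Rpl22l1, a paralogue of Rpl22, stood far from the rest at 128, 138 and 103 TPM in Ddx24KD, against 291, 255 and 257 TPM in EGFPKD, a change of -1.13 ± 0.11 (SE, edgeR adjusted p = 3.18e-06). The core protein Rpl3 was at -0.22, and Rpl23a rose (0.23). Many of these genes have processed pseudogenes with near-identical sequence, so their counts are less certain than those of single-copy genes.

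Genes that sense foreign RNA were lower in part. Of the RNA sensing and interferon genes, 7 of 31 fell and 2 rose, or 12 and 3 with the block. The shares were 22.6% lower and 6.45% higher, beside 13.1% and 15% of all genes. The numbers were 4 and 5 without Ddx24KD replicate 2, and 3 and 1 without EGFPKD replicate 3 or without Ddx24KD replicate 1. Ddx58, which encodes the sensor RIG-I, was at 29.1, 24.4 and 31.99 TPM in Ddx24KD, against 48.4, 42.9 and 51.5 TPM in EGFPKD, a change of -0.75 ± 0.10 (SE, edgeR adjusted p = 6.2e-05). Oas1a, a synthetase of the oligoadenylates that activate RNase L, was at 16.2, 13.1 and 16 TPM in Ddx24KD, against 25.01, 30.2 and 27.9 TPM in EGFPKD, a change of -0.89 ± 0.09 (SE, edgeR adjusted p = 4.96e-06). Both were lower in all knockdown libraries. The guanylate-binding protein Gbp2 was higher at 2.86, 1.13 and 1.98 TPM in Ddx24KD, against 0.86, 0.88 and 0.61 TPM in EGFPKD. Zbp1, a sensor of Z-form nucleic acid, was called at 1.03 (edgeR adjusted p = 0.0123), but its value in replicate 2 of Ddx24KD, 3.76 TPM, lay within the controls (3.62 to 5.74 TPM), and the call was lost without Ddx24KD replicate 1 (adjusted p = 0.0883) and in 1 other fit. In antigen presentation by class I molecules, 4 of 14 fell (28.6%) and 2 rose (14.3%). The heavy chains H2-K1 (-0.86), H2-D1 (-0.71) and H2-T23 (-0.65) fell, as did Cd74 (-1.13), the class II invariant chain. The heavy chain genes are close paralogues, so their separate counts are less certain. Tap1, the peptide transporter and a known p53 target, was at 8.36, 4.31 and 8.60 TPM in Ddx24KD, against 1.67, 1.44 and 1.42 TPM in EGFPKD, a change of 2.21 ± 0.22 (SE, edgeR adjusted p = 3.18e-06).

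Most of the tested genes of amino acid synthesis fell, as did a part of those that import amino acids or load them onto transfer RNA. Many of them are known targets of ATF4, a transcription factor whose translation rises under stress and which binds an element with the bases TGATGNAA (N, any base). Of the synthesis genes, 17 of 23 fell and 3 rose, with a median log2 change of -0.45. Of the transporters, 10 of 23 fell and 5 rose (median -0.16), and of the transfer RNA synthetases 19 of 38 fell and none rose (median -0.17). The shares lower were 73.9% of the synthesis genes, 43.5% of the transporters and 50% of the synthetases, beside 13.1% of all genes. The shares higher were 13.0% of the synthesis genes and 21.7% of the transporters, beside 15% of all genes. The number of synthesis genes higher was 1 without EGFPKD replicate 1, and of transporters 3 without EGFPKD replicate 1 or 2 or without Ddx24KD replicate 1 or 3.

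Phgdh, the first enzyme of serine synthesis at chr3:98313171-98339969, was at 77.9, 85.2 and 84.2 TPM in Ddx24KD, against 147, 156 and 161 TPM in EGFPKD, a log2 change of -0.92 ± 0.11 (SE, edgeR adjusted p = 1.95e-05). Psat1, the next enzyme of that route, was at 155, 168 and 161 TPM in Ddx24KD, against 240.5, 315 and 277 TPM in EGFPKD, a change of -0.79 ± 0.09 (SE, edgeR adjusted p = 1.34e-05). Mthfd2, the mitochondrial folate enzyme, was at 26.3, 25.8 and 24.01 TPM in Ddx24KD, against 42.6, 44.8 and 41.6 TPM in EGFPKD, a change of -0.77 ± 0.06 (SE, edgeR adjusted p = 3.84e-07). The groups were well apart in all 3, and replicate 2 lay close to the other Ddx24KD libraries. Gpt2, which makes alanine in mitochondria, was at 17.3, 19.9 and 17.0 TPM in Ddx24KD, against 34.2, 41.1 and 37.6 TPM in EGFPKD. Aldh18a1, of proline synthesis, was at 22.3, 26.0 and 25.8 TPM in Ddx24KD, against 39.0, 43.3 and 43.5 TPM in EGFPKD. Both were lower in every knockdown library. The largest change of the synthesis list was an increase, in Aldh1l1, a cytosolic folate enzyme, which was at 10.1, 6.74 and 11.02 TPM in Ddx24KD, against 3.03, 2.99 and 3.60 TPM in EGFPKD, a change of 1.52 ± 0.19 (SE, edgeR adjusted p = 2.74e-05).

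Of the transporters, Slc7a1 has been given above. Slc1a5, which carries glutamine, was at 26.7, 28.1 and 26.1 TPM in Ddx24KD, against 46.0, 46.8 and 48.3 TPM in EGFPKD, a change of -0.81 ± 0.07 (SE, edgeR adjusted p = 1.44e-06). Slc38a1 (-0.45), Slc7a3 (-0.35) and Slc7a5, the large neutral amino acid transporter (-0.29), fell. Slc38a2, another glutamine carrier, went the opposite way, at 415, 256 and 409 TPM in Ddx24KD, against 249, 204 and 241 TPM in EGFPKD, and its replicate 2 was 256 TPM beside a highest control of 249 TPM. Its change was 0.62 ± 0.15 (SE, edgeR adjusted p = 0.00529). Among the synthetases, Nars was at 153, 164 and 149.6 TPM in Ddx24KD, against 229, 261 and 246 TPM in EGFPKD. Aars was at 121, 142 and 125 TPM in Ddx24KD, against 186, 220.5 and 202 TPM in EGFPKD. Yars was at 79.5, 84.8 and 72.9 TPM in Ddx24KD, against 118, 137 and 119 TPM in EGFPKD. In each, every Ddx24KD value lay below every control. Gars (-0.51) and Mars (-0.41) fell as well.

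The transcription factors and effectors of the same response did not move as one. Of the ATF4 and CHOP effectors, 8 of 22 fell and 3 rose (median -0.14), with 5 lower without EGFPKD replicate 2, and 5 higher with the block. The shares were 36.4% lower and 13.6% higher, beside 13.1% and 15% of all genes. Atf4 was at 232, 243 and 229 TPM in Ddx24KD, against 263, 287 and 269.5 TPM in EGFPKD, a change of -0.24 ± 0.07 (SE, edgeR adjusted p = 0.0224); the call was lost in 3 fits without a single library, with an adjusted p of 0.0938 without EGFPKD replicate 2. Ddit3, which encodes CHOP, was at 7.08, 6.80 and 9.02 TPM in Ddx24KD, against 6.35, 7.85 and 8.92 TPM in EGFPKD, and its groups overlapped (-0.03 ± 0.20, edgeR adjusted p = 0.93). Atf5, a close relative of ATF4, was at 16.9, 17.1 and 15.9 TPM in Ddx24KD, against 21.9, 28.4 and 23.8 TPM in EGFPKD, a change of -0.59 ± 0.11 (SE, edgeR adjusted p = 0.00106), and Herpud1, of protein disposal at the endoplasmic reticulum, was at -0.71 (edgeR adjusted p = 0.000447). Ddit4, an mTORC inhibitor that p53 and ATF4 both induce, rose to 96.4, 59.8 and 104.9 TPM in Ddx24KD, against 26.7, 33.5 and 23.2 TPM in EGFPKD, a change of 1.63 ± 0.22 (SE, edgeR adjusted p = 6.71e-05).

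Upstream windows are shown for 8 of the 11 genes of these lists that hold the ATF4 element and fell. Each runs up to 30 bases on either side of the match, 5′ to 3′ on the strand of the gene and before a RefSeq transcript start (GRCm38.p6), with the element in capitals as TGATGNAA or as its reverse complement TTNCATCA.
Nupr1, chr7:126625543-126625610, reverse strand: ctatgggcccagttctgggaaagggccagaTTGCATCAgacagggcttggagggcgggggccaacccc
Chac1, chr2:119351019-119351086, forward strand: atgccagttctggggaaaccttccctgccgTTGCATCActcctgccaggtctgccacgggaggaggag
Herpud1, chr8:94386287-94386354, forward strand: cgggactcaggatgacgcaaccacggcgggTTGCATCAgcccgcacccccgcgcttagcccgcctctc
Pycr1, chr11:120643814-120643881, reverse strand: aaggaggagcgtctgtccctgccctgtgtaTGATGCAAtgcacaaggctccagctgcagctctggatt
Asns, chr6:7693210-7693262, reverse strand: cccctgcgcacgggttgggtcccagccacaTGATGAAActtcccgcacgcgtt
Pck2, chr14:55540133-55540200, forward strand: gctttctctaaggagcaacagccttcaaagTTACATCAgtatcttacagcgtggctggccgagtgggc
Aars, chr8:111033700-111033767, forward strand: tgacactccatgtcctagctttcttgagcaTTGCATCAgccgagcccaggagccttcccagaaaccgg
Gars, chr6:55037941-55038000, forward strand: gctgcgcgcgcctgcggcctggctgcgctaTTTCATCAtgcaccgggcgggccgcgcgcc
Asns makes asparagine (-0.53 in Ddx24KD), Pycr1 makes proline (-0.51) and Pck2 makes phosphoenolpyruvate in mitochondria (-1.14); these 3 were named for their windows, after their values were seen. The call of Pycr1 was lost in 4 fits without a single library, with an adjusted p of 0.130 without Ddx24KD replicate 1. Across the 4 lists, 80 tested genes had a window, and 15 held the element within 250 bases of the start (18.8%), beside 2.42% of all 10734 tested genes with one. Of the 15, 11 fell and 1 rose, and of the 65 without it 25 fell. Windows are not shown for Jdp2, Slc7a11 and Tars, which fell, and for Slc7a7, which rose. The call of Jdp2 was lost in 2 fits without a single library. Atf3, Vldlr and Got1 hold the element and were not called. Over all tested genes the element stood before 3.33% of the 1412 that fell, 2.28% of the 1620 that rose and 2.29% of the 7702 that were not called. The start used for Aars is not the outermost one of the gene, whose annotated extent is chr8:111027778-111055569. These counts describe letters in a window and do not show binding.

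Of the cell cycle genes, many of DNA replication fell and a smaller part of those of mitosis rose, both by small amounts. Of the S-phase genes, 24 of 41 fell (58.5%, beside 13.1% of all genes) and none rose (median -0.19). Tk1, thymidine kinase, was at 79.7, 73.4 and 83.2 TPM in Ddx24KD, against 118, 113 and 125 TPM in EGFPKD, a change of -0.60 ± 0.06 (SE, edgeR adjusted p = 2.07e-06). Uhrf1, which brings DNA methylation to new strands, was at 244, 243 and 231 TPM in Ddx24KD, against 339, 321 and 336 TPM in EGFPKD. Pcna, the replication clamp, was at 587, 645 and 555 TPM in Ddx24KD, against 814, 769 and 795 TPM in EGFPKD. No control library fell within the knockdown range of any of them. Mcm10 (-0.40) and the ligase Lig1 (-0.27) fell too. Of the G2 and mitosis genes 15 of 36 rose (41.7%, beside 15% of all genes) and none fell (median 0.12). The number higher was 8 without EGFPKD replicate 2 and 7 without EGFPKD replicate 3. The block added 3 lower, and 2 were lower without Ddx24KD replicate 2. Ckap2, a spindle protein, was at 130.2, 127 and 142 TPM in Ddx24KD, against 82.0, 88.0 and 77.9 TPM in EGFPKD, a change of 0.67 ± 0.07 (SE, edgeR adjusted p = 3.87e-06). The kinesins Kif4 (0.36) and Cenpe (0.26), the centromeric histone Cenpa (0.28) and Prc1 (0.23) rose.

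Several housekeeping systems were slightly lower. Over all tested genes 13.1% fell, with 17.4% at 20 to 100 TPM and 27.8% above 100 TPM. The shares lower were 65.6% of proteasome subunits, 38.2% of mitochondrial ribosomal proteins and 52.9% of sterol and fatty acid genes. Of the respiratory chain subunits 25.3% fell, a share below that of genes above 100 TPM. Of the proteasome subunits 21 of 32 fell and none rose (median -0.18); Psmd3, of the regulatory lid, was at 288, 248 and 287 TPM in Ddx24KD, against 362, 363 and 377 TPM in EGFPKD. The core subunit Psma7 was at 308, 328 and 324 TPM in Ddx24KD, against 367, 374 and 379 TPM in EGFPKD. Both were lower in all 3 knockdown libraries. Of the mitochondrial ribosomal proteins 29 of 76 fell and 2 rose (median -0.15), with 19 lower without EGFPKD replicate 3. Mrpl12, which also binds the mitochondrial RNA polymerase, was at 247, 227 and 237 TPM in Ddx24KD, against 299, 296 and 337 TPM in EGFPKD, and Mrpl36 was at -0.46. Of the nuclear-encoded respiratory chain subunits 19 of 75 fell and 2 rose (median -0.07), or 28 and 6 with the block. None rose without EGFPKD replicate 1 or 3, and 1 without Ddx24KD replicate 1 or 3. The number lower was 11 without EGFPKD replicate 2 or Ddx24KD replicate 3 and 12 without Ddx24KD replicate 1. Uqcrq of complex III (-0.47) and Sdhd of complex II (-0.37) fell. Of the sterol and fatty acid genes 18 of 34 fell and none rose (median -0.26), 11 without EGFPKD replicate 1. Scd1, the stearoyl desaturase, was at 50.2, 47.0 and 50.1 TPM in Ddx24KD, against 81.2, 67.9 and 80.9 TPM in EGFPKD. Ebp, a sterol isomerase, was at 27.1, 29.1 and 24.7 TPM in Ddx24KD, against 42.1, 38.2 and 38.3 TPM in EGFPKD. The knockdown values lay below all controls in both. Their regulator Srebf2 was at -0.23.

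In glucose metabolism the enolase Eno3 was at 9.52, 9.30 and 9.60 TPM in Ddx24KD, against 19.3, 20.01 and 22.9 TPM in EGFPKD, a change of -1.14 ± 0.10 (SE, edgeR adjusted p = 9.47e-07). The glucose transporter Slc2a1 was higher at 628, 563 and 585 TPM in Ddx24KD, against 439, 441 and 396 TPM in EGFPKD, a change of 0.46 ± 0.05 (SE, edgeR adjusted p = 1.4e-05). Neither gene had overlapping groups. Of this list of 31, 4 fell (12.9%) and 1 rose (3.23%), beside 13.1% and 15% of all genes. With the block 9 fell, and 9 without Ddx24KD replicate 2. The number lower was 2 without EGFPKD replicate 1 or 2 or without Ddx24KD replicate 1 or 3. Without Ddx24KD replicate 3, 2 rose. Of the NRF2 and glutathione genes 9 of 31 fell (29%) and 3 rose (9.68%). The counts were 17 and 3 with the block, and 14 were lower without Ddx24KD replicate 2. The number higher was 1 without EGFPKD replicate 1 or Ddx24KD replicate 1 or 3. Tkt (-0.50) and Pgd (-0.49), of the pentose phosphate route, and the quinone reductase Nqo1 (-0.46) fell. Bach1, which represses this programme, rose by 0.38 on the log2 scale.

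**Figure D3:**
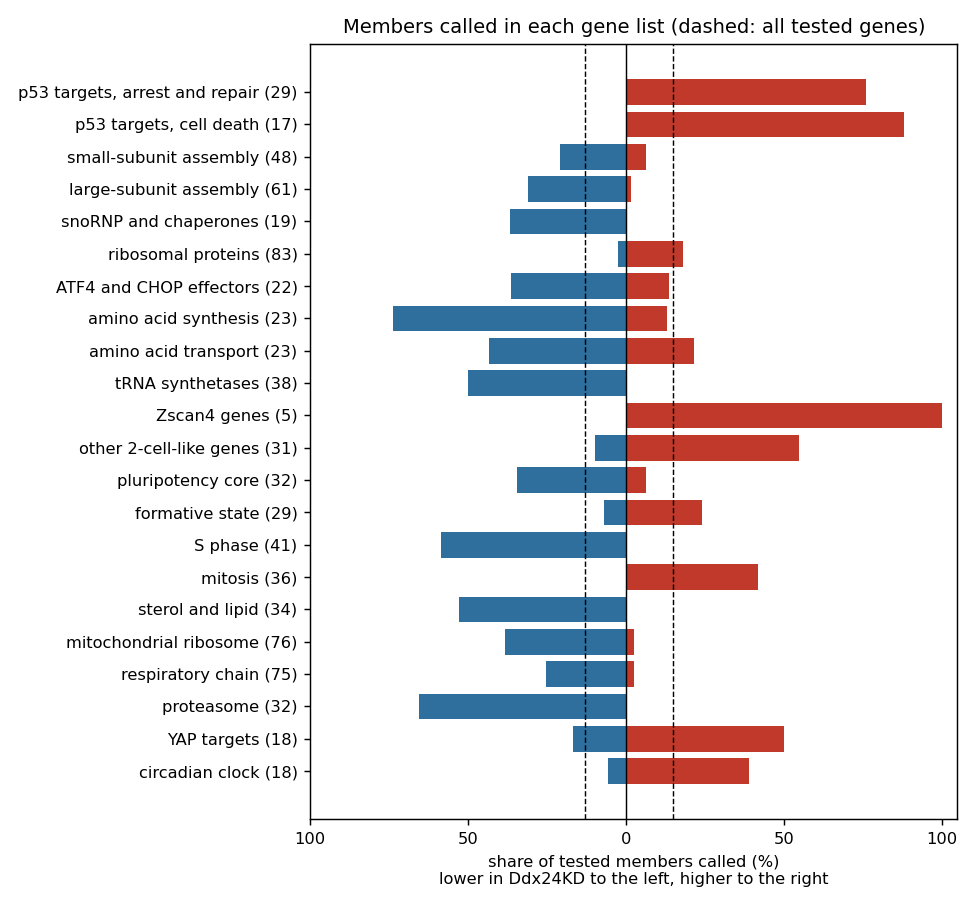
Share of tested members of each gene list that rose (to the right, red) or fell (to the left, blue) in Ddx24KD relative to EGFPKD, with the number of tested members in brackets. Dashed lines mark the shares over all tested genes, 15% higher and 13.1% lower. The p53 and 2-cell-like lists reach furthest to the right, and amino acid synthesis, the proteasome and S phase furthest to the left.

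Many genes of the 2-cell-like state, a rare and transient condition of embryonic stem cells that resembles the 2-cell embryo, rose. All 5 tested Zscan4 genes were called higher, beside 15% of all genes, with a median of 0.94. They lie in a cluster on chromosome 7 and are expressed in bursts in cells of this state. Zscan4f was at 36.5, 49.4 and 40.7 TPM in Ddx24KD, against 19.6, 19.5 and 26.5 TPM in EGFPKD, a change of 0.94 ± 0.17 (SE, edgeR adjusted p = 0.000601). Zscan4b was at 17.5, 25.01 and 15.9 TPM in Ddx24KD, against 9, 6.91 and 10.6 TPM in EGFPKD, a change of 1.13 ± 0.22 (SE, edgeR adjusted p = 0.00103). Replicate 2 was the highest knockdown library for both, unlike the p53 targets, and no library of one group entered the range of the other. Summed over the 5 genes the level was 89.0, 122 and 92.4 TPM in Ddx24KD, against 49.0, 44.6 and 61.9 TPM in EGFPKD. These genes are near-identical copies, so their reads may be split among them and their sum is firmer than single values.

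Of the other 2-cell-like genes 17 of 31 rose and 3 fell (median 0.69), and under a filter of at least 10 CPM in 3 libraries, which removes many of them, 5 rose. Without that filter the shares were 54.8% higher and 9.68% lower, beside 15% and 13.1% of all genes. Dux, the transcription factor that starts the state, was at 1.15, 1.19 and 0.92 TPM in Ddx24KD, against 0.26, 0.15 and 0.45 TPM in EGFPKD, a change of 1.90 ± 0.36 (SE, edgeR adjusted p = 0.00106) at a low level. AF067061 was at 13.7, 11.8 and 11.97 TPM in Ddx24KD, against 4.88, 5.37 and 8.16 TPM in EGFPKD. Ddit4l, an mTORC inhibitor that is on the p53 list too, was at 17.7, 11.2 and 20.3 TPM in Ddx24KD, against 3.06, 3.40 and 3.51 TPM in EGFPKD. In both the groups were separate. The list of proteins that silence retroviruses, some of which are known to restrain this state, had 6 of 29 lower and 3 higher. It also holds Dppa2 and Dppa4, which stand on the 2-cell-like list too and were not called. The shares were 20.7% and 10.3%, beside 13.1% lower and 15% higher over all genes. Under the block 5 were higher, and 1 without EGFPKD replicate 3. Trim28 was at 1509, 1512 and 1448 TPM in Ddx24KD, against 1843, 1757 and 1891 TPM in EGFPKD, and the histone methyltransferases Ehmt2 (-0.52) and Setdb1 (-0.25) fell. Atf7ip (0.29, edgeR adjusted p = 0.00246) was among the members that rose.

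**Figure D4:**
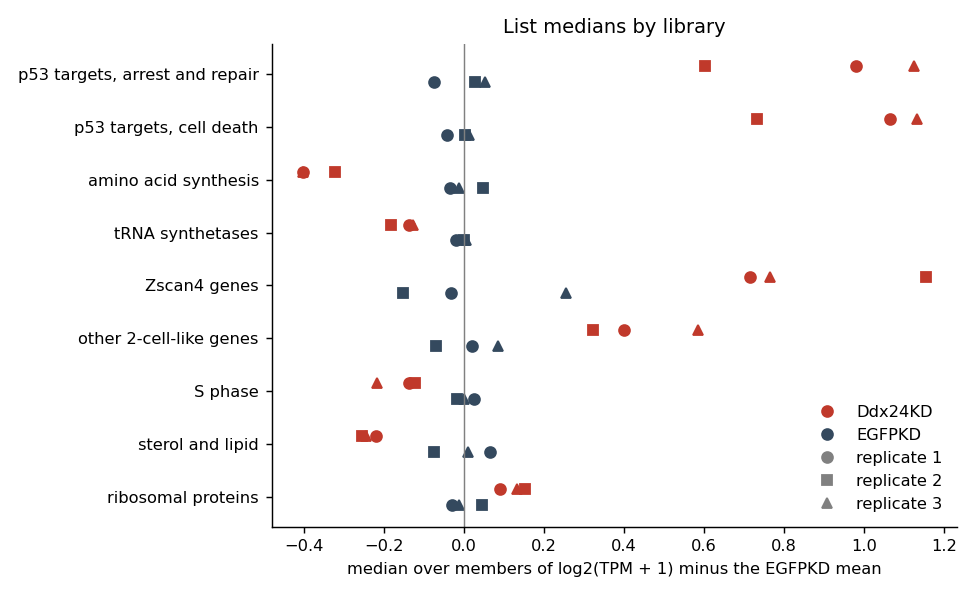
Median over the members of each list of log2(TPM + 1) minus the EGFPKD mean, for each Ddx24KD (red) and EGFPKD (dark) library, with symbols for the replicate number. Replicate 2 of Ddx24KD is the lowest knockdown library for both p53 lists (0.60 and 0.73) and the highest for the Zscan4 genes (1.16).

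The core of pluripotency shifted by less. Of core and naive factors 11 of 32 fell and 2 rose (median -0.07), or 15 and 4 with the block. The shares were 34.4% lower and 6.25% higher, beside 13.1% and 15% of all genes. Of all tested genes at 20 to 100 TPM 17.4% fell and 14.7% rose, and above 100 TPM 27.8% fell and 10% rose. The number of core and naive factors higher was 1 without EGFPKD replicate 2 or Ddx24KD replicate 1 or 3. Nanog was at 433, 538 and 457 TPM in Ddx24KD, against 592, 586 and 588 TPM in EGFPKD, a change of -0.32 ± 0.07 (SE, edgeR adjusted p = 0.00517). Zfp42, a marker of the naive state, was at 692, 681 and 719.8 TPM in Ddx24KD, against 892, 821 and 899 TPM in EGFPKD, a change of -0.33 ± 0.05 (SE, edgeR adjusted p = 8.65e-05). Sox2 was higher, at 599.9, 543 and 642 TPM in Ddx24KD, against 499.8, 480.3 and 514 TPM in EGFPKD, a change of 0.24 ± 0.05 (SE, edgeR adjusted p = 0.00275). Nanog and Zfp42 were lower and Sox2 higher in every knockdown library than in any control. Pou5f1 was at -0.11 ± 0.05 (edgeR adjusted p = 0.111) and was called with the block (adjusted p = 0.0176). Tcl1 (-0.57), Nr0b1 (-0.43) and Klf2 (-0.37) fell. Of genes of the formative epiblast, the stage that follows the naive one, 7 of 29 rose (24.1%) and 2 fell (6.9%), or 13 and 7 with the block. The number lower was 0 without EGFPKD replicate 3, and 1 without EGFPKD replicate 2 or Ddx24KD replicate 1 or 3. Otx2 was at 69.5, 49.4 and 71.3 TPM in Ddx24KD, against 26.2, 18.0 and 23.1 TPM in EGFPKD, a change of 1.49 ± 0.18 (SE, edgeR adjusted p = 1.9e-05). Pou3f1 was at 37.2, 20.1 and 30.3 TPM in Ddx24KD, against 10.96, 7.22 and 12.3 TPM in EGFPKD, a change of 1.51 ± 0.24 (SE, edgeR adjusted p = 0.000219). The lowest knockdown value of each, in replicate 2, was above all controls. The de novo methyltransferase Dnmt3a was at 0.51, and Neurod1 has been given above.

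Markers of later lineages moved both ways. Over all tested genes 15% rose and 13.1% fell. The shares that rose and fell were 22.7% and 4.55% for primitive streak and mesoderm genes, and 17.4% and 21.7% for endoderm markers. They were 10.5% and 15.8% for trophoblast markers, and 20% and 20% for fibroblast markers. Of primitive streak and mesoderm genes 5 of 22 rose and 1 fell, and the median was -0.14, against the direction of the calls. The block gave 4 lower, and 2 were lower without EGFPKD replicate 2 or Ddx24KD replicate 2. Wnt8a was at 4.71, 2.05 and 5.94 TPM in Ddx24KD, against 0.60, 0.50 and 0.66 TPM in EGFPKD. Mesp2 was at 2.85, 2.26 and 2.85 TPM in Ddx24KD, against 1.10, 0.93 and 1.41 TPM in EGFPKD. The groups were separate in both, at low levels. Of endoderm markers 4 of 23 rose and 5 fell, with decreases in the basement membrane genes Lama1 (-0.49), Lamc1 (-0.33) and Nid1 (-0.35) among others. Those that rose included the hepatic nuclear factor gene Hnf4a (1.55), at a low level, the chemokine receptor gene Cxcr4 (1.15) and the collagen chaperone gene Serpinh1 (0.57). Trophoblast markers had 2 of 19 higher and 3 lower. None was higher without EGFPKD replicate 1 or 3 or Ddx24KD replicate 2, and 1 without each of the other 3 libraries, and 1 was lower without EGFPKD replicate 2 or Ddx24KD replicate 3. Krt8 was called at -0.85 (edgeR adjusted p = 0.0151), but not in 2 fits without a single library (adjusted p = 0.0825 without EGFPKD replicate 2). Of 10 fibroblast markers with enough counts 2 rose (1 without Ddx24KD replicate 3) and 2 fell. Twist1, a mesenchymal transcription factor, was at 4.33, 3.21 and 2.54 TPM in Ddx24KD, against 1.87, 1.72 and 1.74 TPM in EGFPKD. Fbn1, the microfibril protein fibrillin, rose by 0.46 on the log2 scale, a call lost without Ddx24KD replicate 3 (adjusted p = 0.0531). Vim, the intermediate filament protein vimentin, was lower at 202, 189.8 and 218 TPM in Ddx24KD, against 286, 302 and 309 TPM in EGFPKD.

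Signalling genes showed a few large changes among many small ones. Shares higher and lower were 26.3% and 10.5% for Nodal, 20% and 10% for Wnt and 34.5% and 17.2% for FGF genes. Over all genes they were 15% and 13.1%. In the Nodal pathway 5 of 19 rose and 2 fell, or 10 and 3 with the block, and 3 rose without EGFPKD replicate 2 or 3 or without Ddx24KD replicate 1. Nodal was at 135, 94.9 and 137 TPM in Ddx24KD, against 72.5, 61.5 and 65.6 TPM in EGFPKD, a change of 0.86 ± 0.12 (SE, edgeR adjusted p = 6.81e-05). Its feedback inhibitor Lefty1 was at 204, 127 and 185 TPM in Ddx24KD, against 123, 91.4 and 93.0 TPM in EGFPKD, where Ddx24KD replicate 2 was 127 TPM beside a highest control of 123 TPM. The activin antagonist Fst rose (1.15), and Inhbb and Gdf1 (-0.99) fell. Of Wnt ligands and feedback genes 6 of 30 rose and 3 fell, or 9 and 6 with the block, and 1 fell without Ddx24KD replicate 3. Wnt5a was at 5.72, 3.39 and 6.76 TPM in Ddx24KD, against 0.66, 0.46 and 0.82 TPM in EGFPKD, Wnt6 was at 1.47, and Notum, which inactivates Wnt proteins, fell by 0.65 on the log2 scale. Of FGF ligands and ERK feedback genes 10 of 29 rose and 5 fell; 6 rose without EGFPKD replicate 1, and 3 fell without EGFPKD replicate 2 or Ddx24KD replicate 1. Fgf17 was at 18.1, 28.4 and 15.3 TPM in Ddx24KD, against 50.3, 46.6 and 53.6 TPM in EGFPKD. Fosl1, an AP-1 subunit downstream of ERK, was at 3.13, 1.29 and 4.76 TPM in Ddx24KD, against 0.21, 0.54 and 0.43 TPM in EGFPKD. The receptor Fgfr2 rose by 0.60 on the log2 scale. The ligand Bmp7, of the BMP pathway, was at 4.59, 2.60 and 5.44 TPM in Ddx24KD, against 1.12, 1.59 and 0.98 TPM in EGFPKD. In Fgf17, Fosl1 and Bmp7 no library of one group lay within the range of the other.

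Of the YAP and TEAD targets 9 of 18 rose and 3 fell (median 0.47). Over all genes 15% rose and 13.1% fell. The shares were 50% and 16.7% for this list and 37.2% and 16.3% for adhesion genes. For matrix genes they were 24.4% and 17.1%, and for actin and SRF genes 8.82% and 20.6%. Ptpn14, a phosphatase that holds YAP in the cytoplasm and is also a p53 target, was at 30.1, 23.1 and 32.3 TPM in Ddx24KD, against 4.50, 5.53 and 5.06 TPM in EGFPKD, a change of 2.49 ± 0.14 (SE, edgeR adjusted p = 3.09e-08). Amotl1 (0.94) and Amotl2 (0.47), which also bind YAP, rose, as did Crim1 (0.77). Of adhesion genes 16 of 43 rose and 7 fell. Cdh3, P-cadherin, was at 52.0, 46.9 and 60.7 TPM in Ddx24KD, against 32.6, 29.0 and 36.4 TPM in EGFPKD. Mcam was at 89.1, 75.6 and 118 TPM in Ddx24KD, against 49.0, 47.8 and 57.0 TPM in EGFPKD. The integrin Itga9 was at 4.95, 6.19 and 4.78 TPM in Ddx24KD, against 10.2, 12.6 and 12.3 TPM in EGFPKD. Cdh3 and Mcam were higher and Itga9 lower in every knockdown library. Of matrix genes 10 of 41 rose and 7 fell, with Plod2, a lysyl hydroxylase of collagen, at 61.6, 52.5 and 59.9 TPM in Ddx24KD, against 24.6, 28.6 and 23.2 TPM in EGFPKD. Of actin and SRF genes 3 of 34 rose and 7 fell, or 13 lower with the block, with Cald1 at 1.34, Anxa8 at 2.14 and Actg1 at -0.27.

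Factors that limit or resolve R-loops, the structures named in the series title, had 3 of 28 higher and 4 lower, 10.7% and 14.3% beside 15% and 13.1% of all genes. With the block 6 were higher and 6 lower, and 5 were higher without Ddx24KD replicate 2. The number lower was 2 without EGFPKD replicate 2 or without Ddx24KD replicate 1 or 3. Top3b, a topoisomerase that acts on RNA and DNA, was at 96.1, 95.1 and 115 TPM in Ddx24KD, against 67.3, 74.3 and 71.3 TPM in EGFPKD, a change of 0.51 ± 0.09 (SE, edgeR adjusted p = 0.000514). The helicase Aqr (0.24) was higher, and Brca1 (-0.30) and Brca2 (-0.22) were lower. Of the other DEAD-box and DEAH-box helicases 4 of 50 rose (8%) and 7 fell (14%). The number lower was 11 under the block, and 3 or 4 without EGFPKD replicate 2 or 3 or without Ddx24KD replicate 1 or 3. Dhx16, a splicing helicase, was at 182, 165 and 189 TPM in Ddx24KD, against 123, 128 and 128 TPM in EGFPKD. Ddx17 was at 214, 208 and 199.9 TPM in Ddx24KD, against 172, 144 and 154 TPM in EGFPKD. Both were higher in all 3 libraries. Of splicing regulators 10 of 41 rose (24.4%) and 3 fell (7.32%), or 6 lower with the block. Those that rose included Mbnl2 (0.69), Ptbp2 (0.51) and Hnrnph1 (0.32).

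The nuclear noncoding RNAs Neat1 and Malat1 were higher, as were 7 of 18 clock genes. Neat1, the scaffold RNA of paraspeckles, was at 32.6, 23.1 and 38.7 TPM in Ddx24KD, against 15.5, 12.5 and 12.5 TPM in EGFPKD, a change of 1.20 ± 0.15 (SE, edgeR adjusted p = 3.51e-05). Malat1 was at 113, 85.8 and 140.0 TPM in Ddx24KD, against 72.4, 59.9 and 71.5 TPM in EGFPKD. The paraspeckle protein Pspc1 was at 123, 128 and 127 TPM in Ddx24KD, against 84.3, 79.7 and 91.3 TPM in EGFPKD. The 2 groups were separate for each. Oligo-dT capture favours polyadenylated RNA, so the levels of Neat1 and Malat1 are less certain. The longer Neat1 isoform is not measured as such. Of the 18 clock genes 7 rose, 1 fell and 10 were not called (median 0.26), with none lower without EGFPKD replicate 1 or Ddx24KD replicate 2. The shares were 38.9% higher and 5.56% lower, beside 15% and 13.1% of all genes. Tef, a clock-output transcription factor, was at 15.98, 13.1 and 18.1 TPM in Ddx24KD, against 7.70, 7.5 and 7.72 TPM in EGFPKD, a change of 1.03 ± 0.10 (SE, edgeR adjusted p = 1.56e-06), and Cry1 (0.38) and Arntl (0.45) rose. Per2, a core repressor of the clock, was at 0.88, 1.13 and 1.10 TPM in Ddx24KD, against 0.33, 0.45 and 0.19 TPM in EGFPKD, a change of 1.66 ± 0.26 (SE, edgeR adjusted p = 0.000207) at a low level. The imprinted gene Phlda2, a placental growth inhibitor, was at 121, 140.5 and 117 TPM in Ddx24KD, against 236, 249.99 and 243 TPM in EGFPKD, a change of -0.95 ± 0.11 (SE, edgeR adjusted p = 1.17e-05). The Polycomb protein gene Bmi1 was at 4.98, 5.56 and 5.09 TPM in Ddx24KD, against 2.03, 2.64 and 1.95 TPM in EGFPKD, a change of 1.23 ± 0.17 (SE, edgeR adjusted p = 5.61e-05).

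The mean transcript length that RSEM gives for a gene, weighted by the abundance of its transcripts, moves when the use of starts, ends or exons moves. Of 1039 genes with lengths that vary and a mean of at least 5 TPM, 23 were called by limma (2.21%), 15 longer and 8 shorter. The count was 9 without EGFPKD replicate 1, 10 without Ddx24KD replicate 1, 11 without EGFPKD replicate 2 or Ddx24KD replicate 3, 12 without EGFPKD replicate 3 and 21 without Ddx24KD replicate 2. In a fit of the 6 libraries alone it was 3, with Pnkd and Rgs12 among them. Pnkd, a mitochondrial and membrane protein gene with 3 annotated transcripts in the files at chr1:74284599-74353692, had a mean length of 1634, 1556 and 1709 bases in Ddx24KD, against 1166, 1147 and 1202 bases in EGFPKD, a log2 difference of 0.48 (limma adjusted p = 0.000803). Its level was at 124, 108 and 138 TPM in Ddx24KD, against 88.2, 95.0 and 104 TPM in EGFPKD, while its counts, which also scale with length, gave a log2 change of 0.86. The lengths of Pnkd did not overlap between the groups.

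The genes Rgs12, Sptbn4 and Tacc2 had shorter means and kept the call in every fit without a single library, but in the fit of the 6 libraries alone Sptbn4 and Tacc2 were not called (limma adjusted p = 0.0686 for both). Rgs12, a regulator of G protein signalling with 2 transcripts in the files, had a mean length of 4093, 4091 and 4110.0 bases in Ddx24KD, against 4782, 4813 and 4581 bases in EGFPKD, a difference of -0.21 (limma adjusted p = 2.17e-05). Rgs12 also rose, to 21.4, 17.7 and 24.98 TPM in Ddx24KD, against 8.47, 8.11 and 10.2 TPM in EGFPKD. Sptbn4, a spectrin, had 5185, 5228 and 5067 bases in Ddx24KD, against 5729, 5573 and 5835 bases in EGFPKD, a difference of -0.15 (limma adjusted p = 0.000803), and rose by 0.80 in log2 counts. Both genes thus had more RNA and a shorter mean transcript in all 3 knockdown libraries. Tacc2, a centrosomal protein, had 4230.2, 4333 and 4177 bases in Ddx24KD, against 4682, 4619 and 4559.8 bases in EGFPKD, a difference of -0.12 (limma adjusted p = 0.00273), and its level was not called (edgeR adjusted p = 0.973). Adam23, a cell-surface disintegrin, was longer, with a difference of 0.11 (limma adjusted p = 0.00458), and was not called in the fit of the 6 libraries alone (limma adjusted p = 0.0991). In the 9 other knockdown libraries the lengths of Pnkd ran from 1504 to 1786 bases and those of Rgs12 from 3912 to 4138 bases.

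**Figure D5:**
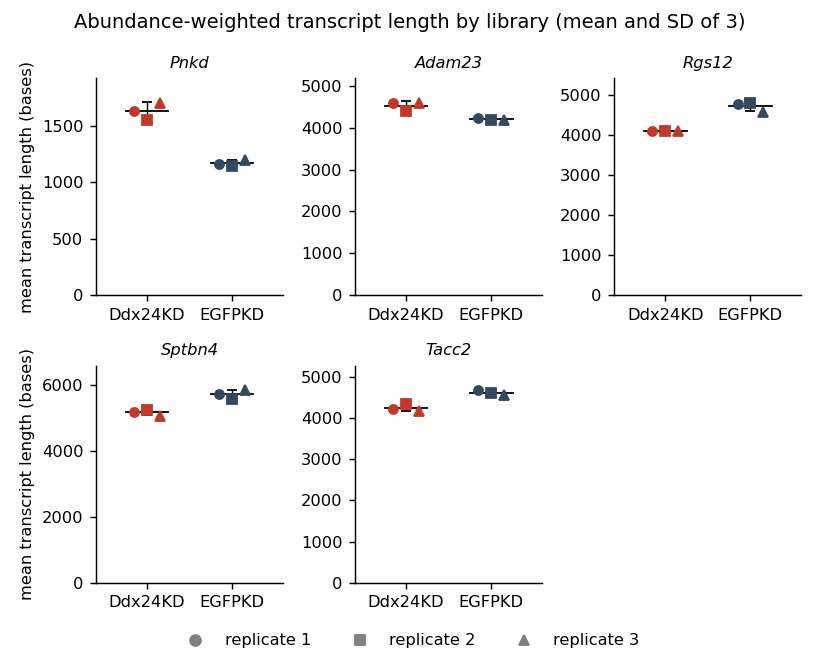
Abundance-weighted mean transcript length in bases of 5 genes in each Ddx24KD (red, left) and EGFPKD (dark, right) library, with the mean and SD of 3. Pnkd and Adam23 are longer and Rgs12, Sptbn4 and Tacc2 shorter in Ddx24KD, with no overlap between groups.

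Few genes were called when Ddx24KD was set against the mean of the 3 other knockdowns. By edgeR without the replicate block 10 of 14335 genes were called (0.0698%), 9 higher (0.0628%) and 1 lower (0.00698%). The block gave 59 and DESeq2 gave 21. Without the block an unadjusted edgeR p under 0.05 was seen in 707 genes. That fit leaves out the pairing by replicate number, so this count cannot tell how many genes differ. Ddx24 was the 1 lower, at 41.2, 41.7 and 31.6 TPM in Ddx24KD, against 99.1 to 115 TPM (median 105.3) in the 9 other knockdown libraries. Ddx10, Ddx27 and Ddx54, each depleted in 1 of the other groups, account for 3 of those higher. The values of the other libraries are given for 2 genes described above. Mdm2 was at 257, 169.8 and 316 TPM in Ddx24KD, against 197 to 309 TPM (median 266) in the 9 other knockdown libraries, and Nupr1 at 3.50, 5.75 and 4.97 TPM in Ddx24KD, against 2.16 to 6.87 TPM (median 3.34) in the 9 other knockdown libraries. Neither was called, with a difference of -0.02 ± 0.12 (SE, edgeR adjusted p = 0.992) for Mdm2 and of 0.30 ± 0.32 (SE, edgeR adjusted p = 0.985) for Nupr1.

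The rest of the 10 were gene models, named after their values were seen, except Gm4340 and Gm20767, which are on the 2-cell-like list. Raver1-fdx1l, a noncoding readthrough transcript over the genes Raver1 and Fdx1l, was at 5.33, 6.47 and 6.12 TPM in Ddx24KD, against 2.09 to 3.44 TPM (median 2.69) in the 9 other knockdown libraries, a difference of 1.10 ± 0.12 (SE, edgeR adjusted p = 0.000389). Its EGFPKD values were 4.43, 5.68 and 4.99 TPM and overlapped those of Ddx24KD (edgeR adjusted p = 0.273), and all 9 other libraries lay below the lowest EGFPKD value. The model overlaps both of its parent genes, and its reads may be shared with them. Gm2016 was at 13.2, 13.1 and 13.8 TPM in Ddx24KD, against 5.90 to 11.5 TPM (median 9.43) in the 9 other knockdown libraries, a difference of 0.64 ± 0.07 (SE, edgeR adjusted p = 0.000447), and Gm2022 was at 0.59 ± 0.09 (SE, edgeR adjusted p = 0.0174). The differences were 0.76 ± 0.13 (SE, edgeR adjusted p = 0.0461) for Gm4340, 0.64 ± 0.11 (SE, edgeR adjusted p = 0.0493) for Gm20767 and 1.09 ± 0.18 (SE, edgeR adjusted p = 0.0368) for Gm4858. The calls of Gm2022, Gm20767, Gm4340 and Gm4858 were each lost in at least 4 of the 12 fits without a single library, with adjusted p of up to 0.188, 0.402, 0.428 and 0.265.

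With the replicate block 59 genes were called in this comparison, 46 higher and 13 lower, and without Ddx10KD replicate 2 or 3 or Ddx24KD replicate 2 or 3 the unblocked count was 6. Among those added by the block were 4 of the 5 Zscan4 genes. Zscan4f was at 36.5, 49.4 and 40.7 TPM in Ddx24KD, against 15.9 to 37.2 TPM (median 30.9) in the 9 other knockdown libraries, a difference of 0.66 ± 0.13 (SE, edgeR adjusted p = 0.129) that the block gave an adjusted p of 0.0173. AF067061 was at 13.7, 11.8 and 11.97 TPM in Ddx24KD, against 5.02 to 9.32 TPM (median 7.80) in the 9 other knockdown libraries, a difference of 0.76 ± 0.14 (SE, edgeR adjusted p = 0.0527), with 0.0144 under the block. The single libraries of Zscan4f show a partial overlap, since 1 Ddx24KD value lies below the highest of the other 9, while those of AF067061 do not overlap. Otx2 and Pou3f1, with smaller differences of 0.32 and 0.40, were also called with the block alone (edgeR adjusted p = 0.00435 and 0.00489), and their ranges overlapped.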

How the data were processed

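Poly(A) RNA was sequenced from 15 libraries of E14 cells, 3 for each of 4 knockdowns and the EGFP control. Per the submitters' processing notes the authors used RSEM with the mm10 build, with aligner, annotation, strandedness and RSEM version not given in the sources used here. The deposited files hold, per gene, expected counts as RSEM estimated them, TPM values that RSEM normalised by length and depth, and an abundance-weighted mean transcript length, per the file headers.

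Expected counts were rounded to whole numbers and fitted in edgeR 4.0.16 (R 4.3.3) over all 15 libraries, with filterByExpr, TMM scaling, a quasi-likelihood test and Benjamini-Hochberg adjustment over the 14335 of 23845 genes that passed the filter, which hold 99.97% of the counts. The contrasts were Ddx24KD minus EGFPKD and Ddx24KD minus the mean of the other knockdowns. The log2 mean length was tested with limma 3.58.1 in genes that averaged at least 5 TPM and whose length varied by over 1% between libraries. The scripts were tested on simulated data.

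Libraries of 1 group differed by more than sampling noise, so each counted as 1 replicate. Replicate numbers come from the sample titles. Deviations from group means correlated in all 30 pairs of same-numbered libraries (r = 0.106 to 0.335). In the 3 pairs of Ddx24KD with EGFPKD r was 0.175 to 0.179. The numbers thus pair the libraries. Main counts and p-values come from the fit that leaves this pairing out, and a fit with that block was an alternative. The others were RLE and upper-quartile scaling, no count filter, at least 10 CPM in 3 libraries, DESeq2 1.42.0, the compared groups alone, an adjusted p under 0.01, a 2-fold change, a mean of at least 20 TPM for lengths, and leaving out each library. The labels call the replicates biological, and the p-values measure the spread between them.

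Named genes are the 4 targets, and up to 10 called genes each way with the largest change and 10 with the highest level among changes of at least 1.5-fold. These had a mean of at least 5 TPM in a group and no overlap between groups. Also named are up to 5 tested members of each list with the smallest p, and the defining members of a list. For lengths the rule took up to 6 called genes each way with the largest difference and no overlap. The neighbours of Ddx24 and called genes that set Ddx24KD apart from the other knockdowns were added. A few further genes, Aldh1l1 and Serpinh1 among them, were named outside this rule. The comparison, gene lists and naming rule were chosen with earlier results of these data known. Upstream windows are from RefSeq, GRCm38.p6, matched by symbol. A few genes that the naming rule picks are not reported here.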

Additional observations from a re-analysis of the deposited data

How the results depend on the processing

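The comparison of Ddx24KD against EGFPKD called 4026 genes, 2154 higher and 1872 lower. Leaving out 1 library gave 2866 to 4307 calls, and the fit with the replicate block gave 2856 lower. An adjusted p under 0.01 left 2310 genes, 1321 higher and 989 lower, and a 2-fold change left 646, 535 higher and 111 lower. Among 270 named genes that were called, 249 kept the call without each of the 6 libraries in turn and in every other setting that tested them, and 270 kept their direction. Most named genes were picked for large changes or small p in these same data, so this share does not describe all called genes.

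Ddx24KD against the mean of Ddx10KD, Ddx27KD and Ddx54KD was a short list of calls that moved with the setting. It held 59 genes with the replicate block (46 higher, 13 lower), 21 by DESeq2 (19 higher, 2 lower), 5 under the 10 CPM filter (4 higher), 6 at an adjusted p under 0.01 (5 higher) and 3 at a 2-fold change (2 higher). Leaving out 1 library gave 6 to 11 genes, 5 to 10 of them higher.

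For transcript length in Ddx24KD against EGFPKD, the 6 libraries alone gave 3 calls, 2 longer and 1 shorter, and leaving out 1 library gave 9 to 21, with 5 to 13 longer and 4 to 8 shorter. The block gave 27, and of the 23 called, 22 were also called with it. The causes of these shifts were not tested. Gene counts by list are given without single libraries beside each list, and in Ddx24KD against EGFPKD the replicate block changed no call of a gene whose values the report gives other than Ddx27, Trp53 and Pou5f1. With 3 libraries a group, small changes can be missed, and at under 1 TPM a change rests on few reads.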

Other observations

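Further gene lists held called genes in Ddx24KD relative to EGFPKD. Of the lysosome and autophagy genes 13 of 58 fell and 7 rose (22.4% and 12.1%, beside 13.1% lower and 15% higher over all genes), with 7 lower without Ddx24KD replicate 3 and 4 higher without that library or EGFPKD replicate 1. Gusb, which cleaves glucuronic acid from glycosaminoglycans, was at 9.90, 10.98 and 9.25 TPM in Ddx24KD, against 17.2, 17.1 and 16.9 TPM in EGFPKD, a log2 change of -0.77 ± 0.10 (SE, edgeR adjusted p = 2.47e-05). Tfeb, a transcription factor of lysosome genes, was at 32.6, 39.1 and 31.4 TPM in Ddx24KD, against 47.2, 50.4 and 47.9 TPM in EGFPKD, a change of -0.52 ± 0.09 (SE, edgeR adjusted p = 0.000329). In both genes every Ddx24KD library was below every EGFPKD library. Of the immediate-early and AP-1 genes 8 of 23 rose (34.8%) and 1 fell (4.35%), with a median of 0.31. But 3 rose without EGFPKD replicate 1, 4 without EGFPKD replicate 3 or Ddx24KD replicate 3 and 5 without Ddx24KD replicate 2. Btg1, which slows cell growth, was at 18.6, 20.03 and 18.6 TPM in Ddx24KD, against 10.6, 13.2 and 10.7 TPM in EGFPKD, and Myc fell by 0.35 on the log2 scale (edgeR adjusted p = 0.00194).

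Of imprinted genes 8 of 41 rose and 4 fell (19.5% and 9.76%, near the shares over all genes, with a median of 0.01), with 3 higher without EGFPKD replicate 1 or Ddx24KD replicate 3, 4 without EGFPKD replicate 2 and 5 without EGFPKD replicate 3; the block gave 8 lower. Magel2, of the Prader-Willi region, was at 1.42, 0.88 and 1.43 TPM in Ddx24KD, against 0.46, 0.22 and 0.57 TPM in EGFPKD, a change of 1.56 ± 0.29 (SE, edgeR adjusted p = 0.000853). Of the germline genes 1 of 31 rose and 5 fell (3.23% and 16.1%), with 2 higher under the block or without Ddx24KD replicate 2, 2 lower without EGFPKD replicate 2 or Ddx24KD replicate 1, and 3 lower without EGFPKD replicate 3 or Ddx24KD replicate 3. The one that rose, Hormad1, a protein of meiotic chromosomes, was at 32.8, 23.6 and 36.6 TPM in Ddx24KD, against 13.98, 14.02 and 15.7 TPM in EGFPKD, a change of 1.08 ± 0.15 (SE, edgeR adjusted p = 6.6e-05). Magel2 and Hormad1 were higher in each Ddx24KD library than in any EGFPKD library. Nefl, the light neurofilament chain, was at 21.7, 18.8 and 20.5 TPM in Ddx24KD, against 39.95, 32.1 and 50.7 TPM in EGFPKD, a change of -1.02 ± 0.13 (SE, edgeR adjusted p = 2.85e-05), and Scn3b, a sodium channel subunit and known p53 target, at 3.98, 2.33 and 5.27 TPM in Ddx24KD, against 1.02, 0.69 and 1.02 TPM in EGFPKD, a change of 2.06 ± 0.25 (SE, edgeR adjusted p = 1.76e-05).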
